A study of Homo sapiens with 28 samples.

Results

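The genes of 8 transcription factors that act when pluripotent cells turn towards the primitive streak and the endoderm were examined in cycling human embryonic stem cells: EOMES, T, MIXL1, GSC, HHEX, SOX17, FOXA1 and FOXA2. Every histone mark peak that overlapped a gene or the 5 kb on either side of it (hg19) was taken, which gave 110 of the 317841 peaks in 16 deposited lists. The cells carry the Fucci reporter, a pair of fluorescent proteins that report cell cycle stage, and were sorted into 4 fractions, where the label DN stands for early G1, the label KO2 for late G1, AzL for S phase and AzH for G2/M. Each of the 4 marks (H3K4me3, H3K27me3, H3K27ac and H3K4me1) was profiled once in each of the 4 fractions by chromatin immunoprecipitation and sequencing. In all groups the cells grew without serum or feeders in defined medium with heregulin, activin A, an IGF-1 analog and FGF2, and no group was differentiated. The labels do not say whether the line is a clone, and no group is a replicate of another. The 8 libraries of 4C, an assay of DNA contacts from a chosen viewpoint, used GATA6 and SOX17 as viewpoints in the same fractions.

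As background, activin and Nodal signals induce EOMES and T in the primitive streak, EOMES and MIXL1 act in the specification of endoderm, and SOX17, FOXA2 and HHEX mark the endoderm that follows. In embryonic stem cells many genes of this kind are held silent by Polycomb complexes, which place H3K27me3, while H3K4me3 is a mark of promoters. Chromatin that carries both is called bivalent. Regulatory elements in use carry H3K27ac, and H3K4me1 is found at enhancers whether or not they are in use.

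With 1 library for each mark and fraction there is no replicate error, so values are described and no difference was tested. Where 4 values follow each other they run through the cycle, from early and late G1 to S and then G2/M. A peak that is not in a list was not called by the authors, which does not show that the mark is absent. In sorted populations, a lower level in every cell and a mark in fewer cells cannot be told apart. The H3K4me3 lists held 24757, 25653, 25977 and 28735 peaks and the H3K27me3 lists 23755, 31682, 19989 and 26480. The H3K27ac list held 10268 peaks in S, against 19525 to 32521 in the other fractions, and the H3K4me1 lists held only 1878 to 6280 peaks. Because heights differed in scale between lists (median 63.8 for H3K4me3 in early G1 and 34.5 to 37.1 in the others), a peak's height is given with its percentile, the share of peaks in its own list that are lower. No expression was measured, so the pluripotent identity of the cells was not checked against marker genes.

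All 8 genes had an H3K27me3 peak in all 4 fractions, and at 7 of them the mark formed a domain of more than 10 kb with its tallest peak between percentiles 95.0 and 99.8 of its list. These lists are mostly of short peaks, with medians of 275 to 350 bp. The tallest peaks of other long domains are not ranked here, and other genes were not counted. The percentiles therefore do not set these genes apart from other long domains. None of the 8 had an H3K27ac peak in any fraction. H3K4me3 was listed at EOMES, T, MIXL1, GSC and HHEX in small peaks, and at SOX17, FOXA1 and FOXA2 in none. HHEX alone had overlapping H3K4me3 and H3K27me3 peaks in every fraction. H3K4me3 covered 3.55 kb of the 8 windows in early G1 and 1.1 kb in late G1.

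**Figure D1:**
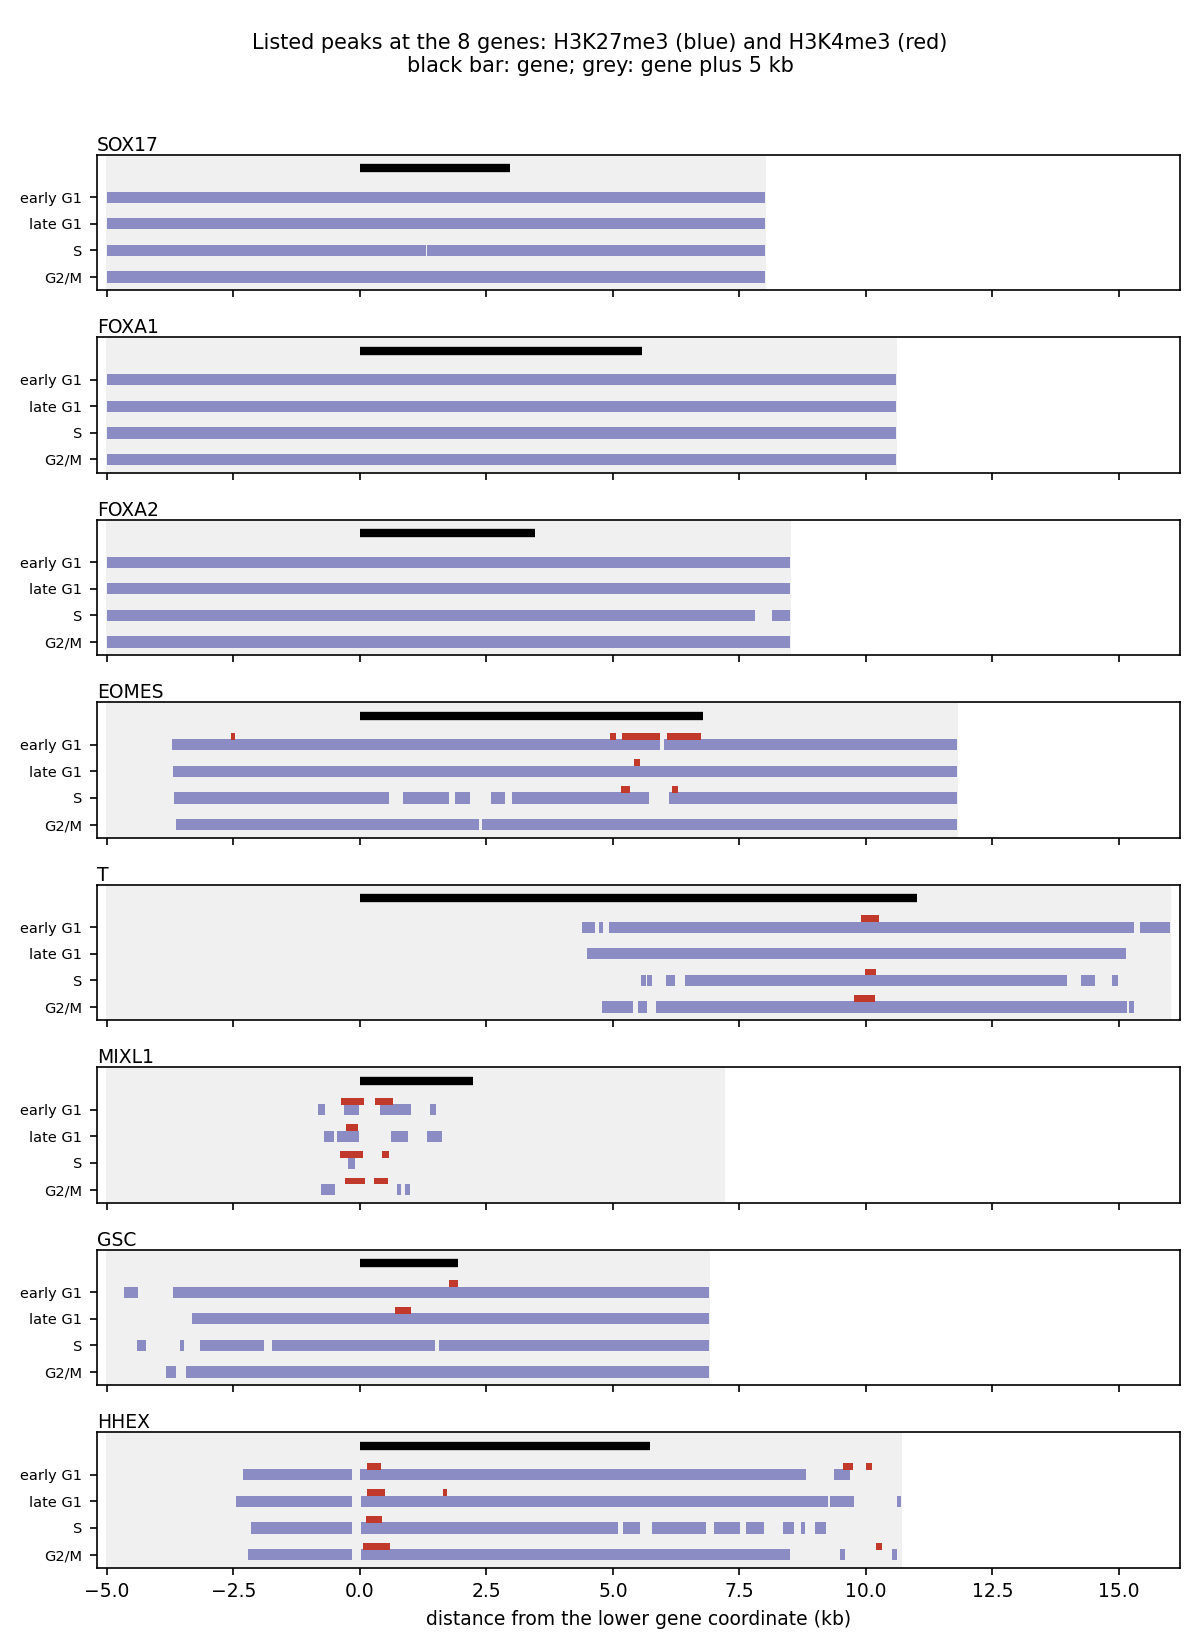
Listed H3K27me3 peaks (blue) and H3K4me3 peaks (red) along each gene (black bar) and the 5 kb on either side (grey), drawn to scale as distance in kb from the lower coordinate of the gene, with a row for each fraction. H3K27me3 fills the windows of FOXA1, FOXA2 and SOX17, while short H3K4me3 peaks stand at EOMES, T, MIXL1, GSC and HHEX.

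The promoter sequences of the genes show how rich in CpG they are, which is the base composition on which Polycomb domains and H3K4me3 are generally found. RefSeq (GRCh38.p14) gave an entry for 6 of the 8 genes, with 2 start sites for T, which is listed as TBXT. Each sequence is the 250 bases before the start, on the gene's own strand from 5′ to 3′, with every CG in capitals. HHEX is shown as the gene with overlapping marks in every fraction, MIXL1 as the gene with the tallest H3K4me3 and no H3K27me3 domain, FOXA1 as a gene with H3K27me3 alone, and T for its separate starts. The positions are those of GRCh38 (HHEX chr10:92689705-92689954, + strand, MIXL1 chr1:226223414-226223663, + strand, FOXA1 chr14:37595250-37595499, − strand, T first start chr6:166168656-166168905 and second start chr6:166167852-166168101, − strand) and were not aligned with the hg19 peaks.
HHEX: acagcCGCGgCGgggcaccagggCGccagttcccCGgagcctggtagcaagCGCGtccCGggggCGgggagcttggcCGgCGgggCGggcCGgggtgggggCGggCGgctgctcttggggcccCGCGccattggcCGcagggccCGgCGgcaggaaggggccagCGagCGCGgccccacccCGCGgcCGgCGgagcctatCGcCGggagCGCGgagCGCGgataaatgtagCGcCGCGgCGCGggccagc
MIXL1: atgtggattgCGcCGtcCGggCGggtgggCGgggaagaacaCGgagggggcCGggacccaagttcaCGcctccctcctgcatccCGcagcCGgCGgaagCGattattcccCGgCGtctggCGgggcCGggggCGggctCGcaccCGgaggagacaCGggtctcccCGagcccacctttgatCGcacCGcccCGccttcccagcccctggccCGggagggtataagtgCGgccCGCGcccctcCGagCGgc
FOXA1: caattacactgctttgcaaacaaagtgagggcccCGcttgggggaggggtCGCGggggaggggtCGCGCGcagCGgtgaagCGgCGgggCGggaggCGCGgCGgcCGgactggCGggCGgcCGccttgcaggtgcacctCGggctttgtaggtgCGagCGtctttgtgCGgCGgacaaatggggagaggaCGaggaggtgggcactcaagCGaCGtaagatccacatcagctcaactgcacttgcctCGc
T, first start: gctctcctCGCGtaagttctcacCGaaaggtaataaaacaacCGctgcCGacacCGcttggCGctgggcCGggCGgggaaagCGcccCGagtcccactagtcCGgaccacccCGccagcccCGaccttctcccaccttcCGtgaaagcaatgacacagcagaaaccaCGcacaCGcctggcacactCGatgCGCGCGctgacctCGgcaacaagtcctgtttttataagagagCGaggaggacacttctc
T, second start: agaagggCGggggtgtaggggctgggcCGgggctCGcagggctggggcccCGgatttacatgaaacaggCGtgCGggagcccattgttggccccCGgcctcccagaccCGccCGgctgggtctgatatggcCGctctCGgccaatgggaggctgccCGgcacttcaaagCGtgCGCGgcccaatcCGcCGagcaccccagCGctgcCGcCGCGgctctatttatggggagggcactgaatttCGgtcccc

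The 250 bases held 38 CG at HHEX, 30 at MIXL1, 26 at FOXA1, and 23 and 22 at the first and second start of T. EOMES held 19 and GSC 18. Over the table's full length of 300 bases (250 before and 50 after the start), the median of all 35116 promoters was 14 CG, and HHEX with 44 stood at the 95.8 percentile, MIXL1 with 37 at the 88.7 and FOXA1 with 34 at the 84.4. FOXA1, which has no H3K4me3 peak in any fraction, thus had a CG count close to that of MIXL1, which has H3K4me3 in all of them. The observed CG count over that predicted from C and G content was highest at the first start of T, 1.01, and was 0.966 at FOXA1, 0.924 at HHEX and 0.917 at MIXL1, against a median of 0.579. The lowest values were 0.683 at the second start of T, 0.744 at EOMES and 0.784 at GSC.

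Motifs of the factors' own families were searched in the same 300 bases on both strands. The forkhead core TGTTTA, present in 12.3% of all promoters, was in 0 of the 7 entries, as were the T-box core TCACAC (12.0%), the bicoid-type homeodomain site TAATCC (6.36%) and the longer palindromic site of paired homeodomains (0.365%). The SOX site ACAAAG (16.1%) was in 1, that of FOXA1. The letters of the TATA box, TATAAA (11.5%), were in 3, those of EOMES, the first start of T, and GSC. Strand and distance from the start were not considered, so these matches need not be TATA boxes. The homeodomain sites share their first letters, TAAT, and a match or its lack describes this window only.

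The T-box genes EOMES and T, both early targets of activin and Nodal signals, lay in H3K27me3 domains of 21.6 kb and 11.6 kb. A domain is here the H3K27me3 peaks of the 4 lists joined across gaps of up to 1 kb. EOMES (chr3:27757440-27764206) had 15.4, 15.5, 14.1 and 15.4 kb of its 16.8 kb window under H3K27me3. In late G1 this was a single peak of 21.0 kb (chr3:27753751-27774725), and in S it was listed as 6 peaks. EOMES was the only gene whose heights were lowest in early G1, at 259, 611, 464 and 330. These are 9.0, 25.2, 23.8 and 17.1 times the list medians, and stand at the 98.5, 99.8, 99.8 and 99.6 percentiles. By the authors' separate score column, EOMES stood at the 98.3, 96.5, 97.9 and 97.6 percentiles. The late G1 value was thus the highest by height and the lowest by score.

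T, the mesoderm factor Brachyury (chr6:166571146-166582157), had 11.3, 10.7, 8.32 and 10.2 kb of its 21.0 kb window covered. The domain (chr6:166575526-166587150) spans the start of the gene and leaves its far end without a peak. Heights were 310, 243, 169 and 175, at the 99.4, 98.9, 98.1 and 98.3 percentiles. The covered length of the T domain in S was 0.782 times that in late G1, the lowest ratio among the 7 genes with a domain.

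The homeobox genes differed among themselves. GSC, the gene of the organizer factor Goosecoid (chr14:95234560-95236499), had 10.9, 10.2, 10.1 and 10.6 kb of an 11.9 kb window covered, in a domain of 17.0 kb. Its heights were 280, 224, 160 and 170, at the 98.9, 98.6, 97.9 and 98.1 percentiles. HHEX, a factor of anterior endoderm and liver (chr10:94449681-94455408), had 11.3, 12.1, 9.9 and 10.7 kb of 15.7 kb covered, with heights of 207, 152, 119 and 133. The HHEX heights stood between the 96.4 and 97.0 percentile, the narrowest range of the 8 genes.

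MIXL1, a paired-type homeobox gene of the streak (chr1:226411319-226413545), stood apart from the other 7. Its H3K27me3 covered 1.15, 1.27, 0.15 and 0.45 kb of 12.2 kb, and its longest peak was 600, 425, 150 and 275 bp. Heights were 34.9, 29.0, 15.5 and 15.9, which are 1.21, 1.19, 0.794 and 0.828 times the list medians. The percentiles, 62.7, 64.1, 24.7 and 28.2, put MIXL1 in the upper part of the G1 lists and in the lower part of the S and G2/M lists. It was also the only gene inside no domain of at least 5 kb.

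SOX17, an endoderm factor of the SOX family (chr8:55370495-55373456), was covered over 13.0, 13.0, 12.9 and 13.0 kb, which is 99.8% of the window in S and all of it elsewhere. Its heights were 274, 157, 98.7 and 135, and their percentiles were 98.8, 97.0, 95.0 and 97.1. SOX17 had the lowest H3K27me3 percentile of the 7 domain genes in S.

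The forkhead genes FOXA1 and FOXA2, whose products open chromatin at endoderm enhancers, had the longest domains, 31.1 and 35.1 kb. FOXA1 (chr14:38058757-38064325) had its whole 15.6 kb window under 1 peak in every fraction, with heights of 315, 272, 164 and 170. The FOXA1 heights are 10.9, 11.2, 8.4 and 8.82 times the list medians, at the 99.5, 99.1, 98.0 and 98.2 percentiles. FOXA2 (chr20:22561642-22565101) had 13.5, 13.5, 13.1 and 13.5 kb covered, with heights of 314, 241, 167 and 244. The FOXA2 peak of early G1, chr20:22539176-22571450, was 32.3 kb long. Some heights on chromosome 20 disagree with the scores (lowest rank correlation 0.905 over the H3K4me3 and H3K27me3 lists, against 0.973 to 0.985 on the other chromosomes with heights), so both are given for FOXA2. Its height percentiles were 99.4, 98.8, 98.1 and 99.1, and its score percentiles 98.7, 99.7, 99.4 and 99.6.

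**Figure D2:**
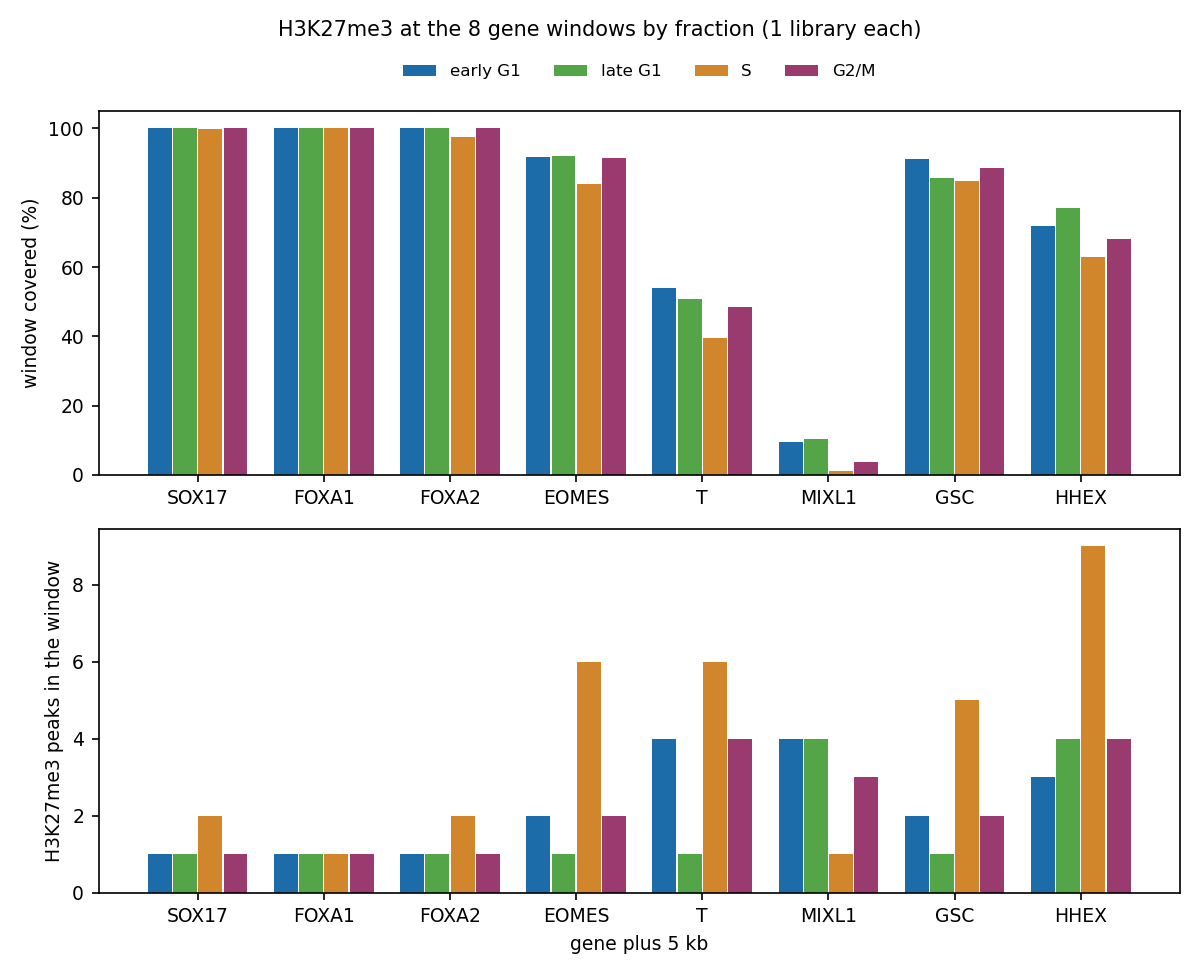
H3K27me3 at the 8 genes in the 4 fractions, as the percent of the window (gene plus 5 kb) covered by peaks, above, and as the number of peaks in the window, below, 1 library a bar. MIXL1 lies at 1.23% to 10.4% cover, below every other gene, and the S bars for the number of peaks are the highest at 6 genes, up to 9 at HHEX.

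The summed H3K27me3 cover of the 8 windows was 92.1, 91.7, 84.2 and 89.3 kb. S was the lowest, at 0.918 times late G1, while the whole S list covered 0.536 times the length of the whole late G1 list. The window ratio is capped, because SOX17, FOXA1 and FOXA2 were covered over 97.6% to 100% of their windows in every fraction by peaks that mostly ran past the edges, so the cover of whole domains is given too. Cover was shortest in S in 7 of the 8 windows, FOXA1 being full in all fractions. All 7 member domains were likewise shortest in S, and so were 90.8% of the 868 domains of at least 10 kb, so S being the lowest is shared with the class. In S the members' domains had a median of 0.835 times their late G1 cover, ranging from 0.782 at T to 0.905 at SOX17, against a median of 0.615 for domains of at least 10 kb.

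Most windows were split into more peaks in S. The S list had 2 peaks at SOX17, 2 at FOXA2, 6 at EOMES, 6 at T, 5 at GSC and 9 at HHEX, more than any other fraction in these 6 windows. Over whole domains, S had the most peaks at 3 of 7 (EOMES, T and HHEX), against 22.1% of all domains of at least 10 kb. Relative to the list median, the tallest peak was in early G1 at 4 of the 7 domains (SOX17, T, GSC and HHEX), against 38.7% of the 817 long domains with heights.

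The 7 domains were long beside all H3K27me3 domains of at least 5 kb. This is a wider class than the domains of at least 10 kb used above. Their median length was 21.6 kb, against 8.1 kb for the 2358 domains of at least 5 kb. By length, FOXA2 stood at the 95.1 percentile of those domains, FOXA1 at 93.9, SOX17 at 90.5, EOMES at 88.2, GSC at 82.6, HHEX at 76.4 and T at 69.9. All 7 were thus above the median of the domains of at least 5 kb, with the forkhead genes first and T last. Their lengths were not ranked among the domains of at least 10 kb alone.

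H3K4me3 was sparse by comparison, with 5, 4, 4 and 3 of the 8 genes holding a peak. The 27 peaks in the windows were 75 to 750 bp long (median 275 bp), and 2 of them, both at MIXL1, were above the median height of their list. The whole lists had median peak lengths of 675, 500, 550 and 475 bp. Of the 27 peaks, 22 overlapped an H3K27me3 peak of the same fraction. Over the whole lists this held for 5038 of 24757, 4956 of 25653, 3978 of 25977 and 5181 of 28735 peaks. At the 7 genes with a domain, H3K27me3 covered 39.6% to 100% of the window. A peak placed anywhere in such a window would often overlap it, so the 22 say little about H3K4me3 itself.

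At EOMES, H3K4me3 covered 1.62, 0.125, 0.3 and 0 kb. The early G1 cover lay mostly in a peak of 750 bp (chr3:27762626-27763375) and one of 675 bp, placed 831 to 1580 and 31 to 705 bases downstream of the start. That start is the upper hg19 coordinate of the gene, and whether it is the RefSeq start was not checked. Only a 125 bp peak was listed in late G1. The tallest peak had heights of 45.3, 19.2 and 17.7 in the first 3 fractions, at the 40.5, 19.7 and 18.2 percentiles, and G2/M had no peak within 99.0 kb. EOMES was the gene with the most H3K4me3 in early G1 and none in G2/M.

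T had 0.35, 0, 0.225 and 0.425 kb of H3K4me3, with heights of 32.1, 18.8 and 18.1 in early G1, S and G2/M. The heights are 0.502, 0.507 and 0.525 times the list medians, at the 29.3, 22.2 and 23.1 percentiles. These peaks lay 757 to 1106, 807 to 1031 and 832 to 1256 bases downstream of the gene's start, not at it. RefSeq lists a second start of T 804 bases downstream of the first in GRCh38, the sequence printed as the second start, but whether its first start is the hg19 start was not checked. In late G1 the nearest H3K4me3 peak was 149 kb from the gene.

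MIXL1 had the tallest H3K4me3 of the set in every fraction but late G1, covering 0.8, 0.225, 0.6 and 0.675 kb. Its heights were 68.0, 21.2, 34.6 and 36.3, at the 51.6, 26.2, 47.9 and 51.5 percentiles. The main peak crossed the start in early G1 (bases −368 to 81 from it), S (−393 to 56) and G2/M (−293 to 106), and in late G1 it lay before it (−268 to −44). A further peak downstream of the start, 307 to 656 bases away in early G1, was listed in S and G2/M too and not in late G1.

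GSC had H3K4me3 in the G1 fractions only, 0.175 kb at its start in early G1 and 0.325 kb from 924 to 1248 bases downstream in late G1. The heights of 17.8 and 22.6 stood at the 2.24 and 29.8 percentiles, so the early G1 peak was among the lowest in its list. The G1 peaks of GSC did not share a position.

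HHEX had H3K4me3 in all 4 fractions, over 0.6, 0.425, 0.325 and 0.65 kb. Its heights were 27.6, 26.0, 26.2 and 26.2, which are 0.433, 0.707, 0.705 and 0.761 times the list medians. The percentiles were 23.6, 36.7, 38.7 and 40.9. A peak downstream of the start was listed in every fraction, at 145 to 419, 145 to 494, 120 to 444 and 70 to 594 bases. H3K27me3 at HHEX was interrupted just before the start: the upstream peak ended at base −156 from it in all 4 lists, and the next began at base −5 in early G1 and 20 in the others. The gap of 150 bp in early G1 and 175 bp in the other fractions was the same to within the 25 bp grid on which peaks are listed.

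**Figure D3:**
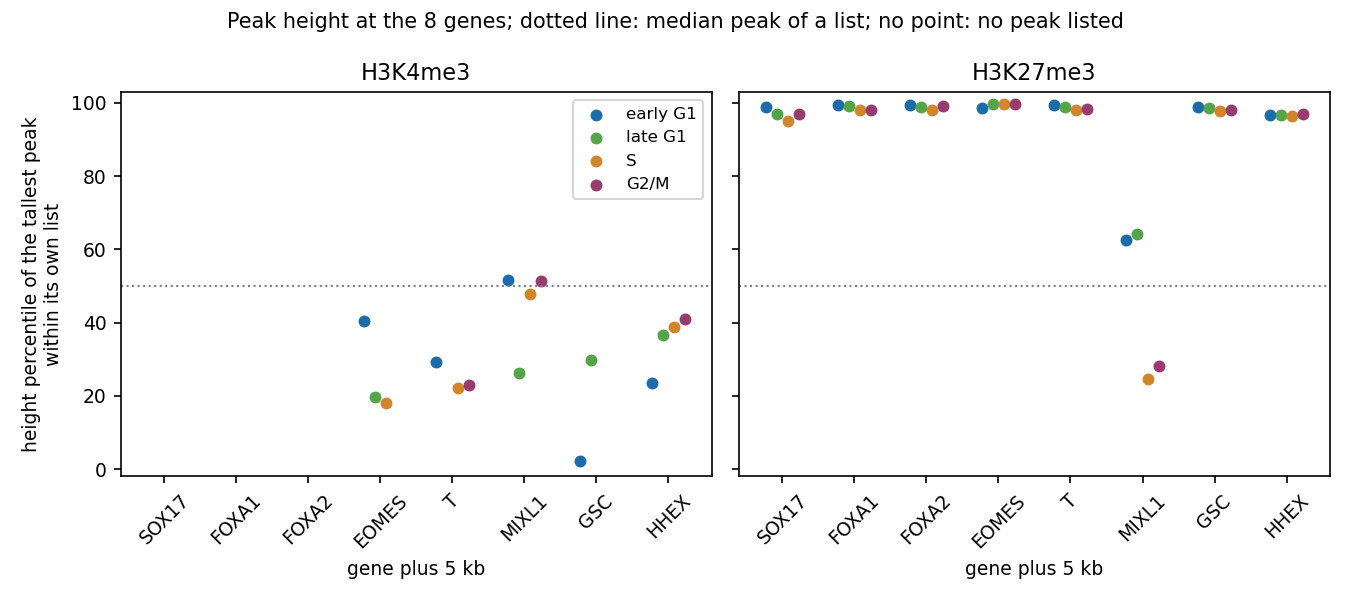
Height percentile of the tallest H3K4me3 and H3K27me3 peak at each gene, by fraction, where a missing point means that no peak was listed. The H3K27me3 points of 7 genes lie at 95.0 or above, and no H3K4me3 point lies above 51.6.

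The H3K4me3 cover of the windows in late G1, 1.1 kb, was 0.31 times the 3.55 kb of early G1, and it was 1.45 kb in S and 1.75 kb in G2/M. Over the whole lists the ratio of late to early G1 was 0.866, and over the 7959 H3K4me3 regions that were bivalent in at least 1 fraction it was 1.01. EOMES gave most of the difference, T, MIXL1 and HHEX also had less cover in late G1, and GSC had more. Of the bivalent regions with H3K4me3 cover in early G1, 69.0% were likewise shorter in late G1, so the direction at 4 of these 5 genes is also that of most such regions. With so few peaks the ratio rests on a handful of short intervals: without peaks under 500 bp, no H3K4me3 was left in late G1.

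Height within the list gave no shared direction from early to late G1. Of the 4 genes with a peak in both, GSC and HHEX had a higher percentile in late G1 and EOMES and MIXL1 a lower one, where 45.5% of the 15710 H3K4me3 regions found in both lists were higher in late G1. Among the 3605 of these that were bivalent in some fraction, 63.4% were higher. The median change was −3.88 percentile points for the 4 genes, −1.57 for all regions and 5.73 for the bivalent ones. As a log2 ratio of heights over the list medians, the median of the 4 genes was 0.13, of the opposite sign.

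Overlap of H3K4me3 and H3K27me3 by at least 1 bp was found in 15 of the 32 pairs of a gene and a fraction, at 5, 4, 4 and 2 genes. The same share over other genes or long domains was not counted, so 15 of 32 cannot be called high or low. HHEX was bivalent in all 4 fractions, EOMES and MIXL1 in early G1, late G1 and S, T in early G1, S and G2/M, and GSC in the G1 fractions. MIXL1 in G2/M had both marks listed, side by side and not overlapping. SOX17, FOXA1 and FOXA2 were bivalent in none. The windows held 14 separate H3K4me3 regions after joining overlapping peaks of the fractions, of which 1 was bivalent in every fraction, against 5.58% of the 32799 regions in the series. Only 2 of the 14 had a peak in all 4 fractions, where 47.7% of all regions did. Overlap in a list does not show that the marks share an allele or a cell.

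The H3K4me3 heights at these genes were also set beside those of all H3K4me3 peaks under H3K27me3. The median percentile of the tallest peak per gene was 29.3, 28.0, 30.5 and 40.9, over 5, 4, 4 and 3 genes. Taking the tallest peak can only raise a gene's value, so the measures are not alike. All H3K4me3 peaks that overlap H3K27me3 in the same fraction (5038, 4956, 3978 and 5181 peaks) were counted singly. Their median percentiles were 34.9, 42.2, 40.5 and 42.5. The genes fell on both sides of these values: EOMES and MIXL1 in early G1 and MIXL1 in S and G2/M stood above them, the last with peaks that overlap no H3K27me3.

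For FOXA1 and FOXA2 in every fraction, and for SOX17 in all but G2/M, the nearest listed H3K4me3 peak lay far outside the window. How far such peaks usually lie from long H3K27me3 domains was not measured. The nearest peak to SOX17 was 322 kb away in early G1, late G1 and S. In G2/M it was a peak of 100 bp 9.32 kb away (chr8:55382776-55382875) at the 3.22 percentile, which lies inside the SOX17 domain. For FOXA1 the distances were 391, 61.3, 391 and 61.4 kb, and for FOXA2 467, 765, 467 and 467 kb. Counted over domains, 2 of 7 (FOXA1 and FOXA2) had no H3K4me3 in any fraction, against 43.3% of all domains of at least 10 kb, and 1 of 7 (HHEX) had it in all 4, against 29.4%.

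H3K27ac was listed in 0 of the 32 pairs. None of the 7 domains held an H3K27ac peak, as was the case for 89.7% of domains of at least 10 kb. The nearest H3K27ac peak to EOMES was 34.7, 34.4, 181 and 181 kb away and that to MIXL1 36.6, 159, 160 and 159 kb. At FOXA2 it was 78.5 kb away in early G1 and 644 kb or more in the other fractions, and at GSC it was 353 to 1080 kb away. At all the genes but GSC the distances in S and G2/M were nearly the same. The S and G2/M lists of H3K27ac were the shorter ones, and the part of list size in these distances was not tested.

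H3K4me1 was listed in 1 of the 32 pairs, a peak of 125 bp at MIXL1 in late G1 (chr1:226408776-226408900), at bases −2543 to −2419 from the start. Its height of 16.7 stood at the 89.6 percentile of a list of 4017 peaks. FOXA2 had H3K4me1 outside its window and inside its domain in 3 fractions, 11.3 kb from the gene in late G1, 17.0 kb in S (chr20:22544326-22544600, 97.3 percentile) and 14 kb in G2/M. The other 6 domains had none, and 85.1% of domains of at least 10 kb had none.

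SOX17 was itself a viewpoint of the 4C libraries. The site with most reads, position 55373264 on chromosome 8, is inside the SOX17 gene and held 16.3%, 19.9%, 24.5% and 25.9% of the reads. The 4 restriction sites of the SOX17 window together held 1807488, 2181060, 1893982 and 4205259 reads, or 16.9%, 20.4%, 25.3% and 27% of the library. The share was higher in S and G2/M than in the G1 fractions. Reads at a viewpoint include products of cutting and ligation at the site itself, so this is not a contact frequency.

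From the GATA6 viewpoint (GATA6 encodes an endoderm factor), the windows of the 8 genes, all on other chromosomes, held 2107 reads at 37 sites. In proportion to sites, 611 reads would fall there, a ratio of 3.45 (95% exact binomial interval 3.3 to 3.6). Reads are PCR products without molecular identifiers, so the intervals cover counting error only and are too narrow. By fraction the ratio was 3.1, 5.81, 3.33 and 1.5, highest in late G1 and lowest in G2/M. In late G1, 376 of the 984 reads came from the 2 sites of GSC. The ratio of long domains is not split by fraction here, so whether they share this order was not tested. Sites in all H3K27me3 domains of at least 10 kb on these chromosomes had a ratio of 4.46. By reads, the members' ratio was thus below that of long H3K27me3 domains. By the share of sites with any read the order was the reverse, 48.6% for the members and 43.5% for long domains.

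The GATA6 reads came from few sites. HHEX had 137, 264, 113 and 185 reads and was the only gene other than SOX17 (36, 115, 43 and 16) and FOXA2 (165, 134, 62 and 40) with reads in every fraction. GSC had 0, 376, 43 and 11, FOXA1 168, 0, 2 and 0, EOMES 49, 90, 4 and 0, and T 1, 5, 48 and 0. MIXL1 had no read at its 2 sites, as was the case for 85.3% of all sites on other chromosomes. Any read in any fraction was found at 18 of the 37 sites (48.6%), against 14.7% of all sites on other chromosomes and 43.5% of the 4283 sites in long H3K27me3 domains.

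From the SOX17 viewpoint the other 7 genes held 366 reads at 33 sites, against 329 in proportion to sites, a ratio of 1.11 (1.0 to 1.23), while sites in long H3K27me3 domains had a ratio of 4.28. By fraction it was 1.66, 1.22, 0.986 and 0.538. T (134, 0, 12 and 21 reads) and HHEX (3, 65, 36 and 17) gave most of them, and MIXL1 and GSC gave none. A read was found at 10 of the 33 sites (30.3%), against 12.8% of all sites on other chromosomes and 34.1% of sites in long domains. With the site of most reads left out, the ratio was 0.702 for SOX17 and 2.38 for GATA6.

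**Figure D4:**
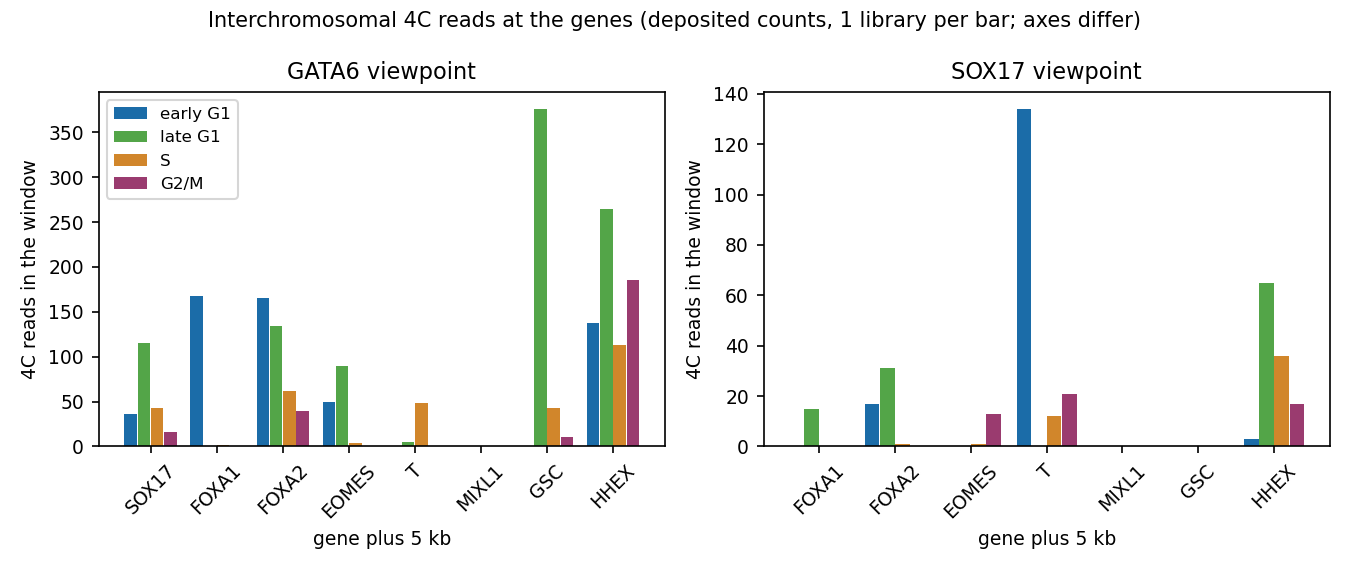
4C reads in the window of each gene on another chromosome than the viewpoint, by fraction, for the GATA6 and SOX17 viewpoints, 1 library a bar, with windows without reads at 0. HHEX has reads in every fraction from both viewpoints, and MIXL1 has none from either.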

How the data were processed

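The series holds 28 samples with 1 library in each group: 16 ChIP libraries, 4 inputs (not analysed here) and 8 4C libraries. The submitters' processing notes name Bowtie 0.12.7 and 2 builds, hg19 and mm9, and do not say what each was for. Not given in the sources used here are the peak caller, its settings and whether the inputs were used. Each deposited peak list gives a signal column, used as the height, and a score column that is more negative for stronger peaks. Both are the authors' values, and their meaning was read from the values. Heights of 0, which cover the chromosomes coded 22 to 24, were treated as missing. The deposited 4C table gives counts, whole reads at 837622 HindIII sites. No per-sample column was left unused.

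Gene positions were those named in the rule that chose the genes, in hg19, and all 8 genes are reported. The members and lists were chosen with earlier results of these data known. A longer list of endoderm and streak genes was not analysed here, because no hg19 annotation was at hand. Covered length is the number of bases in a window under peaks, without double counting. The strand of EOMES, FOXA1, T, MIXL1, GSC and HHEX came from RefSeq (GRCh38.p14), and no start was used for SOX17 or FOXA2. The start of a gene was its hg19 coordinate at the 5′ end on that strand, and was not checked against the RefSeq starts. The windows may hold starts of neighbouring genes. Intervals for 4C ratios are exact binomial (Clopper-Pearson, 95%) and cover counting error only. No p-value was computed. Alternatives were windows of 2 and 10 kb (50 kb for 4C), peaks of at least 500 bp, the better-scored part of each list, equal numbers of peaks per fraction, other overlap rules, the score in place of the height and log2 heights, and for 4C each site counted once and the site with most reads left out. Functions were tested on simulated data. Python 3.11.15, numpy 2.4.6, pandas 2.3.3, scipy 1.17.1 and matplotlib 3.10.9 were used.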

Additional observations from a re-analysis of the deposited data

How the results depend on the processing

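The count of genes bivalent in all 4 fractions was 1 with windows of 2 kb or 10 kb, equal numbers of peaks, or H3K27me3 over 50% of the H3K4me3 peak. It was 0 with peaks of at least 500 bp and 0 with the upper 50% of each list by score, and 2 with H3K27me3 allowed within 500 bp. The 15 pairs with overlapping marks became 2 with peaks of at least 500 bp and 1 with the upper 50% by score, and 14 to 16 otherwise. H3K27ac stayed at 0 pairs in each alternative run, and the pair with H3K4me1 became 0 with windows of 2 kb and 0 with peaks of at least 500 bp. The H3K27me3 cover of S over late G1 (0.918) was 0.919 with windows of 2 kb, 0.883 with 10 kb, 0.904 with peaks of at least 500 bp, 0.903 with the upper 50% and 0.921 with equal numbers. The H3K4me3 cover of late over early G1 (0.31) was 0.349 with windows of 2 kb, 0 with peaks of at least 500 bp and 0 with the upper 50%, and 0.31 otherwise. The median percentile difference (−3.88) was −6.48 with equal numbers, −2.25 by score and 0.13 as log2 height over the list median, with 2 of 4 genes higher in late G1 each time. It had no value with peaks of at least 500 bp or the upper 50%, which left no gene in both lists. The GATA6 4C ratio (3.45) was 3.22 with windows of 50 kb, 2.38 without the site with most reads and 3.35 with each site counted once. The SOX17 ratio (1.11) was 1.41 with windows of 50 kb, 0.702 without the site with most reads and 1.82 with each site counted once. The cause of these differences was not tested, beyond the fewer peaks or sites that each choice leaves. No paired analysis was possible because each group is 1 library and the labels give no replicate numbers.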
